A study of Mus musculus with 22 samples.

Results

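The genes described here encode subunits of the proteasome and were chosen by symbol: every row of the 3 tables that matches Psma, Psmb, Psmc or Psmd followed by a number, leaving out the immunoproteasome genes Psmb8, Psmb9 and Psmb10. This gave 36 genes among the 19781 of both embryonic stem cell tables and the same 36 among the 19057 of the induced pluripotent stem cell table. By their known roles, 31 encode constitutive subunits of the complex and 3 (Psmd5, Psmd9 and Psmd10) encode chaperones that help to assemble it. The other 2 encode subunits known from germ cells (Psma8) and thymus (Psmb11), though Psma8 was also read in the stem cells here. The name constitutive therefore holds for the 31 and is not used below for the other 5.

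The proteasome is the protease that removes most short-lived and damaged proteins from the cytosol and nucleus. Its core particle is a barrel of stacked alpha and beta rings, with the active sites inside the beta rings on the products of Psmb5, Psmb6 and Psmb7. A regulatory particle caps the barrel: its base holds the ATPases Psmc1 to Psmc6, which unfold substrates, and its lid holds Psmd14, which cuts the ubiquitin chain from the substrate. Cells that lack proteasome activity raise these subunits together through the transcription factor encoded by Nfe2l1, and interferon signalling replaces the active-site subunits by those of the immunoproteasome. In osteoblasts the proteasome degrades Runx2, a transcription factor of the lineage.

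RNA sequencing compared mouse stem cells with osteoblast cultures grown from them. All cells of these comparisons carry Col2.3GFP, a transgene that puts green fluorescent protein under part of the type I collagen promoter, so the sort selects on the activity of that promoter. The groups are undifferentiated embryonic stem cells of 1 line at passages 20 to 30 (ESC, 3 samples), osteoblast cultures from that line at 35 to 40 days (ESC-OB, 3), cells sorted for GFP from those cultures, also at 35 to 40 days (sorted GFP+, 3), undifferentiated induced pluripotent stem cells of 1 line at passages 10 to 20 (iPSC, 2), and osteoblast cultures from these at 35 to 40 days (iPSC-OB, 2). All differentiated groups passed through embryoid bodies for 6 days, without LIF and the kinase inhibitors PD0325901 and CHIR99021, with retinoic acid at 0.1 µM added on day 3 and removed on day 5, and then through osteogenic medium. Stem cells were kept with or without feeder cells, and scarce RNA was given a low-input library kit. The sources used here do not say which samples these were or whether replicates were separate cultures, so the p-values measure only the spread between these samples. Calvarial and bone samples of the series are not analysed here.

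The tables hold the authors' comparisons and no value for a single sample, so overlap between samples cannot be shown. Group levels below are estimates in normalised counts (reads scaled for library size) from each gene's deposited mean and fold changes; those of ESC and iPSC groups come from separate normalisations and carry no test across them. Library depth, read from the lowest mean values, was 4.49 to 19.5 M reads in ESC, 6.72 to 11.5 M in ESC-OB and 22.4 to 30.1 M in sorted GFP+. It was 10.4 to 13.0 M in iPSC and 10.1 to 17.7 M in iPSC-OB. The iPSC fit held 3 libraries on the iPSC side, against 2 labelled samples, and the extra library is not identified. The iPSC depths and levels given here use all 3. All 8 pluripotency markers fell in each comparison, and 7, 8 and 7 of 8 osteoblast markers rose in ESC-OB, sorted GFP+ and iPSC-OB. Sp7, an osteoblast transcription factor, did not pass in ESC-OB or iPSC-OB. In these bulk samples, fewer cells of a type and less RNA per cell cannot be told apart.

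The promoters of 4 members are shown because they belong to the genes on which the results turn: 2 active-site subunits, the lid subunit Psmd12 with one of the deepest falls, and the lid subunit Psmd8, which did not fall. Each is the 150 bases before the transcript start from RefSeq (build GRCm38.p6), 5′ to 3′ in the direction of the gene. Psmb5 (chr14:54617996-54618145, minus strand) and Psmb6 (chr11:70525207-70525356, plus strand) have the antioxidant response element core TGACNNNGC in capitals, the letters that the Nfe2l1 and Nfe2l2 proteins are known to bind. Psmd12 (chr11:107479378-107479527, plus strand) has in capitals the ETS family letters CCGGAAG, here on the opposite strand. Psmd8 (chr7:29180674-29180823, minus strand) holds none of the motifs searched. Nor do the promoters of Psma4, Psma5, Psmb4, Psmc4, Psmc5, Psmd1 and Psmd5, and all of these genes fell in ESC-OB. The part of the motifs in the changes was not tested.
Psmb5: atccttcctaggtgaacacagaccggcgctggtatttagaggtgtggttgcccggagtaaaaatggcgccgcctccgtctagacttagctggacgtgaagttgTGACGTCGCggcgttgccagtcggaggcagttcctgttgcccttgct
Psmb6: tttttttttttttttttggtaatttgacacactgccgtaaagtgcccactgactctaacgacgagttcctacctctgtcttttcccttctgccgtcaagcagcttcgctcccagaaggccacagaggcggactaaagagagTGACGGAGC
Psmd12: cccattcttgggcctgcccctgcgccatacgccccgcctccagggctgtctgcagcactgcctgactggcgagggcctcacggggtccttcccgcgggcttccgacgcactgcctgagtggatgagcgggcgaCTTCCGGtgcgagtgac
Psmd8: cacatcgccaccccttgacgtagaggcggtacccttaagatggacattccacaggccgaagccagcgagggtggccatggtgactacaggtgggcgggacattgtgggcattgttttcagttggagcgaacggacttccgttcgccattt

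The RefSeq table held 31 promoters for 29 of the 36 genes, each from 250 bases before to 50 after the start. On either strand, the letters CCGGAAG stood in 11 of the 31 (35.5%), against 8.86% of all promoters of that length and 17.7% of those of genes with a base mean of at least 100. CCAAT, bound by the NF-Y complex, stood in 12 (38.7%) against 37.4% and 37.5%. TGACNNNGC stood in 5 (16.1%) against 12.4% and 14.2%. It began 47 bases before the start in Psmb5 and 9 bases before it in Psmb6, and was also found in Psmd9, Psmc6 and Psmd12. CCAAT and CCGGAAG overlapped in Psmc2 and Psma6. A match is a description of letters and not of a bound site.

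In ESC-OB, 34 of the 36 genes were lower than in ESC, none was higher, and Psmd8 and Psmb11 did not pass the threshold of 0.05 on the adjusted p. By the authors' deposited values 69.6% of all genes with an adjusted p passed (31.0% lower and 38.6% higher), and 39.5% of those with a base mean of at least 100 were lower. The median log2 change of the 36 was -1.17, which is 44.6% of the ESC level, against 0.26 over all genes. Of the 31 constitutive subunits 30 fell, with a median of -1.15 and a range from -1.77 (Psmd14) to -0.16 (Psmd8). The SD among the 31 changes was 0.32, against a median standard error of 0.12, and 25 of the 31 lay below -1. Summed over the 31, the estimated level was 77259 normalised counts in ESC and 35063 in ESC-OB. None of the 36 was higher at an unadjusted p under 0.05 either.

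**Figure D1:**
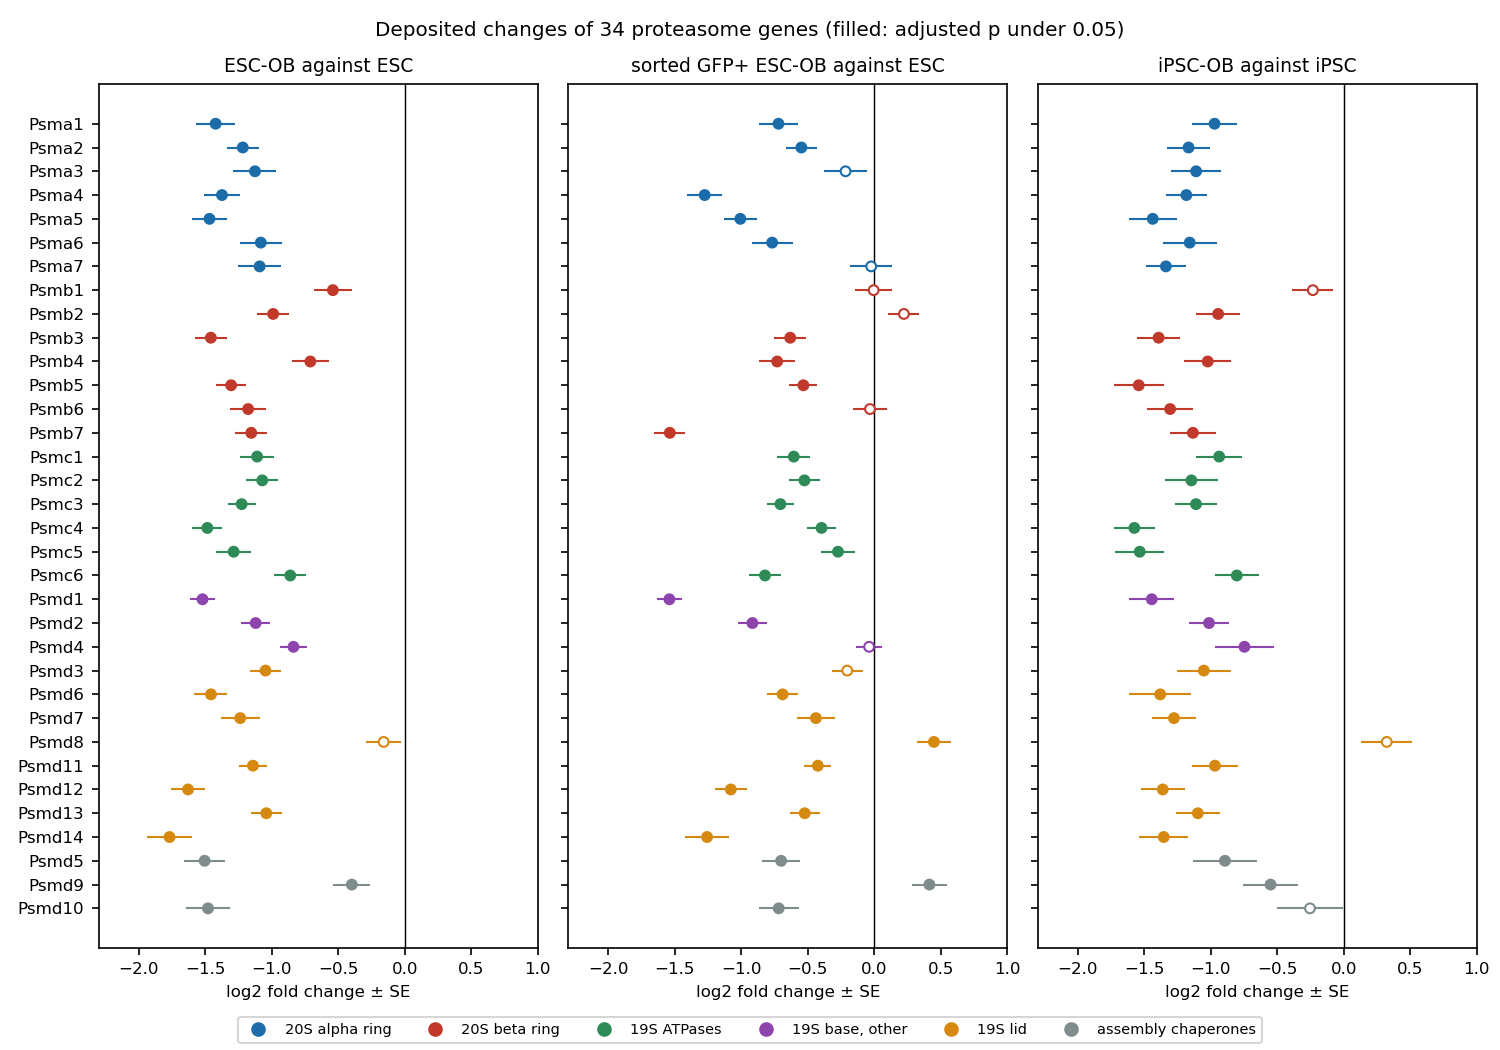
Log2 fold changes with their standard errors, from the authors' deposited tables, for 34 proteasome genes (rows, coloured by role) in 3 comparisons; filled points have an adjusted p under 0.05. Nearly all points lie left of 0 in ESC-OB and iPSC-OB, and those of the sorted cells lie nearer to 0. Psma8 and Psmb11 are off the scale and are described in the text.

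All 7 alpha ring genes, whose products form the gated outer rings of the core particle, fell in ESC-OB (median -1.22). Their changes ran from -1.08 ± 0.16 for Psma6 to -1.47 ± 0.13 for Psma5 in the authors' deposited table, where ± is the authors' standard error throughout (adjusted p = 1.95e-11 and 3.46e-29). All 7 beta ring genes fell as well (median -1.15) but differed more among themselves, with an SD of 0.33 against 0.16 for the alpha ring. Psmb3 was at -1.46 ± 0.12 in the authors' deposited table and Psmb1 at -0.54 ± 0.14 (adjusted p = 5.68e-32 and 2.77e-04). Psmb4 was at -0.71 ± 0.14 and Psmb2 at -0.99 ± 0.12 there (adjusted p = 5.93e-07 and 8.41e-16).

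The 3 active-site genes fell by similar amounts in ESC-OB. Psmb5, the chymotrypsin-like site, was estimated at 1072 normalised counts in ESC, 433 in ESC-OB, 741 in sorted GFP+, 1144 in iPSC and 393 in iPSC-OB. Psmb6, the caspase-like site, was at 2248, 993, 2199, 2187 and 885 in the same order of groups. Psmb7, the trypsin-like site, was at 2404, 1080, 828, 2454 and 1118. In ESC-OB the authors' deposited table gives log2 changes of -1.31 ± 0.11, -1.18 ± 0.13 and -1.15 ± 0.12 for Psmb5, Psmb6 and Psmb7 (adjusted p = 9.03e-30, 3.51e-18 and 2.27e-21). Of the 3, Psmb6 did not pass as different from ESC in sorted cells, and Psmb7 did not pass as different between sorted and unsorted cells (adjusted p = 0.0866). Per kilobase of transcript the ESC levels were 1192 normalised counts for Psmb5, 2817 for Psmb6 and 2072 for Psmb7.

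All 6 ATPases of the base fell in ESC-OB (median -1.17), from -0.86 ± 0.12 for Psmc6 to -1.49 ± 0.11 for Psmc4 in the authors' deposited table, with adjusted p = 1.98e-12 and 4.53e-38. Psmc1, Psmc2, Psmc3 and Psmc5 lay between, at -1.07 to -1.29. The other 3 base genes also fell: the scaffolds Psmd1 and Psmd2 and the ubiquitin receptor Psmd4. Psmd1 went from an estimated 5218 normalised counts in ESC to 1818 in ESC-OB, a log2 change of -1.52 ± 0.09 in the authors' deposited table, at adjusted p = 5.02e-57. Psmd4 was at -0.84 ± 0.10 there (adjusted p = 3.51e-16). Of the 8 lid genes 7 fell, led by the deubiquitinase Psmd14, at 1962 normalised counts in ESC and 575 in ESC-OB, and by Psmd12, at 2705 and 874. Psmd3, Psmd6, Psmd7, Psmd11 and Psmd13 lay between -1.04 and -1.46. The log2 changes of Psmd14 and Psmd12 in the authors' deposited table were -1.77 ± 0.17 and -1.63 ± 0.12 (adjusted p = 2.07e-25 and 7.76e-38).

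Psmd8, a lid subunit needed to complete the lid, stood apart from the other constitutive subunits. Its estimated level was 2157 normalised counts in ESC, 1932 in ESC-OB, 2945 in sorted GFP+, 1885 in iPSC and 2359 in iPSC-OB. Within the ESC fit the sorted cells were thus highest, and within the iPSC fit the iPSC-OB. The authors' deposited tables have it at -0.16 ± 0.13, 0.45 ± 0.13 and 0.32 ± 0.19 in ESC-OB, sorted GFP+ and iPSC-OB (adjusted p = 0.270, 8.67e-04 and 0.155). Genes with a base mean of at least 10 had a median of 0.19 in ESC-OB, 0.21 in sorted GFP+ and 0.06 in iPSC-OB. Relative to that median, Psmd8 passed as lower in ESC-OB and no longer passed as higher in sorted GFP+. Genes with a base mean of at least 100 had lower medians, 0.04 in ESC-OB and 0.05 in sorted GFP+. Calls relative to that centre were not made.

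Of the assembly chaperones, which hold the ATPases until the base is built, Psmd5 and Psmd10 (gankyrin) fell in ESC-OB by 1.51 ± 0.15 and 1.48 ± 0.17 on the log2 scale in the authors' deposited table, with adjusted p = 1.65e-22 and 3.65e-18. Psmd9 fell by 0.40 ± 0.14 (adjusted p = 0.00708, authors' deposited table). All 3 had few reads for their length: per kilobase, ESC levels were 256 normalised counts for Psmd5, 128 for Psmd9 and 285 for Psmd10, against 820 to 2932 for the 31 constitutive subunits.

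**Figure D2:**
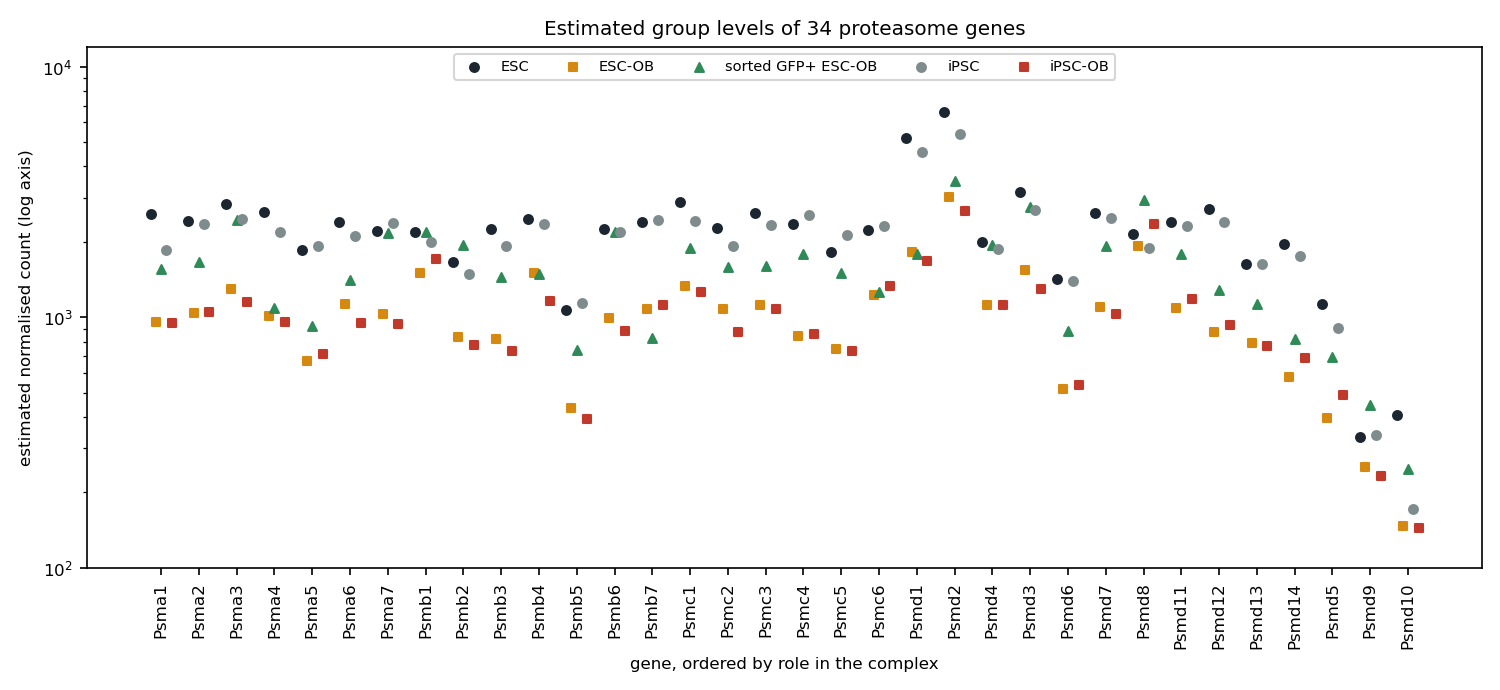
Estimated normalised counts (log axis) of 34 proteasome genes in 5 groups, 1 point per group with no error, since the tables hold no values per sample. Both osteoblast cultures (squares) lie below their stem cells (circles) for every gene but Psmd8, whose iPSC-OB point lies above iPSC. ESC and iPSC groups were normalised separately.

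Within ESC, the levels of the 31 constitutive subunits per kilobase of transcript spanned 3.58-fold, from Psmd13 to Psmb3. The span was 3.56-fold in ESC-OB (358 to 1273 normalised counts per kilobase), 5.17-fold in sorted GFP+ (533 to 2755), 3.38-fold in iPSC (811 to 2740) and 4.24-fold in iPSC-OB (361 to 1532). Psmb6 was the most abundant per kilobase in sorted GFP+ and iPSC, and Psmd8 in iPSC-OB. The transcript lengths are those of 1 principal transcript per gene and are not known to be those used in these cells. RefSeq names pseudogene copies of Psma5, Psmb5, Psmb6 and Psmb7, none with a row in the tables, and has other genes overlapping Psma3, Psma4, Psma6, Psmb5, Psmb7, Psmc5, Psmd1 (Htr2b among them), Psmd10 and Psmd13. How reads shared with these were counted is not stated, so the values of these genes are uncertain to that extent.

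Psma8, a meiotic alpha subunit of the testis, fell by far more than any constitutive subunit. It was estimated at 350 normalised counts in ESC and at 1.07 in ESC-OB and 0.288 in sorted GFP+, both under the floor that 3 reads over a group give (1.28 and 0.459). Against those floors it was at least 274-fold lower in ESC-OB and at least 764-fold lower in sorted GFP+. In iPSC it was at 75.4 normalised counts and in iPSC-OB at 2.88, above the floor of 1.32, a fitted 26.2-fold fall. The authors' deposited tables list adjusted p = 4.51e-20, 3.41e-24 and 2.5e-09 for ESC-OB, sorted GFP+ and iPSC-OB. The germ cell markers Ddx4, Dazl, Sycp3 and Tex11 fell in 4, 4 and 3 of 4 cases in the same order, from a summed 581 normalised counts in ESC to 27.1 and 19.4, and from 470 in iPSC to 32.8. Their part in the fall of Psma8 was not tested.

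Psmb11, the active-site subunit of thymic cortical epithelium, was near the limit of detection in every group, at 0.235 to 2.20 normalised counts. It passed in no comparison, and the iPSC table gives it no adjusted p. Of the 4 thymic epithelial markers, a list that includes Psmb11 itself, 1, 2 and none rose in ESC-OB, sorted GFP+ and iPSC-OB.

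Markers of dividing cells moved in the direction of the proteasome genes. All 8 (Mki67, Top2a, Ccnb1, Cdk1, Aurka, Plk1, Bub1 and Mcm5) were lower in ESC-OB, with a median of -3.84 and a summed level of 41847 normalised counts in ESC against 3519 in ESC-OB. All 8 were lower in sorted GFP+ (median -4.24, sum 1947). In iPSC-OB, 6 of 8 were lower (median -1.19, sum 18537 against 39783 in iPSC), and for 8 of 8 the change from iPSC lay above that from ESC (median difference 2.44). The part of cell division in the fall of the proteasome genes was not tested.

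In sorted GFP+ cells against ESC, 26 of the 36 genes were lower, Psmd8 and Psmd9 were higher, and 8 did not pass. By the authors' deposited values 71.5% of all genes passed (32.4% lower and 39.1% higher), and 40.7% of those with a base mean of at least 100 were lower. The median log2 change was -0.58 (67.0% of the ESC level), against 0.28 over all genes. With levels under the floor of 3 reads raised to it, the median was -0.62. Of the 31 constitutive subunits 23 fell and 1 rose (median -0.55), and only 6 lay below -1. Their SD was 0.48, with a range from -1.54 to 0.45. The 2 rises were 0.45 ± 0.13 for Psmd8 and 0.41 ± 0.13 for Psmd9 in the authors' deposited table, with adjusted p = 8.67e-04 and 0.00217. Both were lost relative to the median gene of base mean at least 10 (0.21), when 29 were lower and 0 higher. Genes with a base mean of at least 100 had a median of 0.05, and calls relative to that centre were not made.

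By role, the sorted cells had 5 of 7 alpha ring, 4 of 7 beta ring, 6 of 6 ATPase, 2 of 3 other base and 6 of 8 lid genes below ESC. Among the constitutive subunits, the deepest falls were those of Psmd1 (-1.54 ± 0.09) and Psmb7 (-1.54 ± 0.12) in the authors' deposited table, with adjusted p = 8.19e-61 and 3.11e-38. Psma4 followed (-1.28 ± 0.13, adjusted p = 7.14e-21). Psmc5, an ATPase, passed narrowly at -0.27 ± 0.13 (adjusted p = 0.0439, authors' deposited table). Those that did not pass were Psma3, Psma7, Psmb1, Psmb2, Psmb6, Psmb11, Psmd3 and Psmd4. Psma7 was at -0.02 ± 0.16 and Psmb6 at -0.03 ± 0.13 in the authors' deposited table, with adjusted p = 0.906 and 0.837. Relative to the median gene of base mean at least 10, Psma3, Psmd3 and Psmd4 also passed as lower.

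Sorted GFP+ cells were then compared with the unsorted cultures, as the difference of the deposited log2 changes. Both share the ESC libraries, so the standard error of the difference is wider than it should be. Of the 36 genes 26 were higher in the sorted cells, none was lower and 10 did not pass. Over all genes 22.7% passed, 10.7% higher and 12.1% lower. The median difference was 0.64, or 1.56-fold, against 0.06 over all genes. The summed level of the 31 constitutive subunits was 52487 normalised counts in sorted GFP+, between those of ESC-OB and ESC given above. At an unadjusted p under 0.05, 27 were higher and 1, Psmb7, was lower. The share of all genes at that unadjusted cut was not counted.

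Psmb2, a beta ring subunit, was estimated at 1659 normalised counts in ESC, 835 in ESC-OB and 1937 in sorted GFP+. Its sorted minus unsorted difference was the largest, 1.21 ± 0.17 (adjusted p = 1.73e-11). It was followed by Psmb6 (1.15 ± 0.19, adjusted p = 1.78e-08), Psmc4 (1.09 ± 0.16, 1.75e-10), Psma7 (1.07 ± 0.22, 2.35e-05) and Psmc5 (1.01 ± 0.18, 4.87e-07). All 3 assembly chaperones and 7 of 8 lid genes were higher, with 5 of 7 alpha ring, 5 of 7 beta ring, 5 of 6 ATPase and 1 of 3 other base genes.

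Of the genes that did not pass, some lay close to 0. Psmd1 differed by -0.02 ± 0.13 (adjusted p = 0.960), Psmb4 by -0.02 ± 0.19 (0.971), Psmc6 by 0.04 ± 0.17 (0.944) and Psma4 by 0.10 ± 0.19 (0.855). Psmb7 had the lowest estimate of the constitutive subunits, -0.38 ± 0.17 (adjusted p = 0.0866). Psmb7 passed as lower with the shared ESC variance taken out. That step assumes that each variance splits evenly between ESC and the differentiated libraries, which was not checked. The sorted libraries were the deepest. Of the dividing markers, 2 of 8 were lower in sorted than in unsorted cells and 6 did not pass. Summed cardiac markers were 16433 normalised counts in ESC-OB and 4084 in sorted GFP+, and summed epithelial markers 14708 and 29077. The sums were 3597 and 8582 for smooth muscle, 2415 and 834 for endothelium, and 2484 and 4484 for liver and endoderm. By the test of the difference, no smooth muscle or liver and endoderm marker passed. Of the others, 2 of 6 cardiac and 1 of 4 endothelial markers were lower in sorted cells, and 3 of 4 epithelial markers were higher. The osteoblast markers summed to 143163 and 205071 normalised counts, and none of the 8 passed. The part of depth, cell division and these cell types in the difference was not tested.

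**Figure D3:**
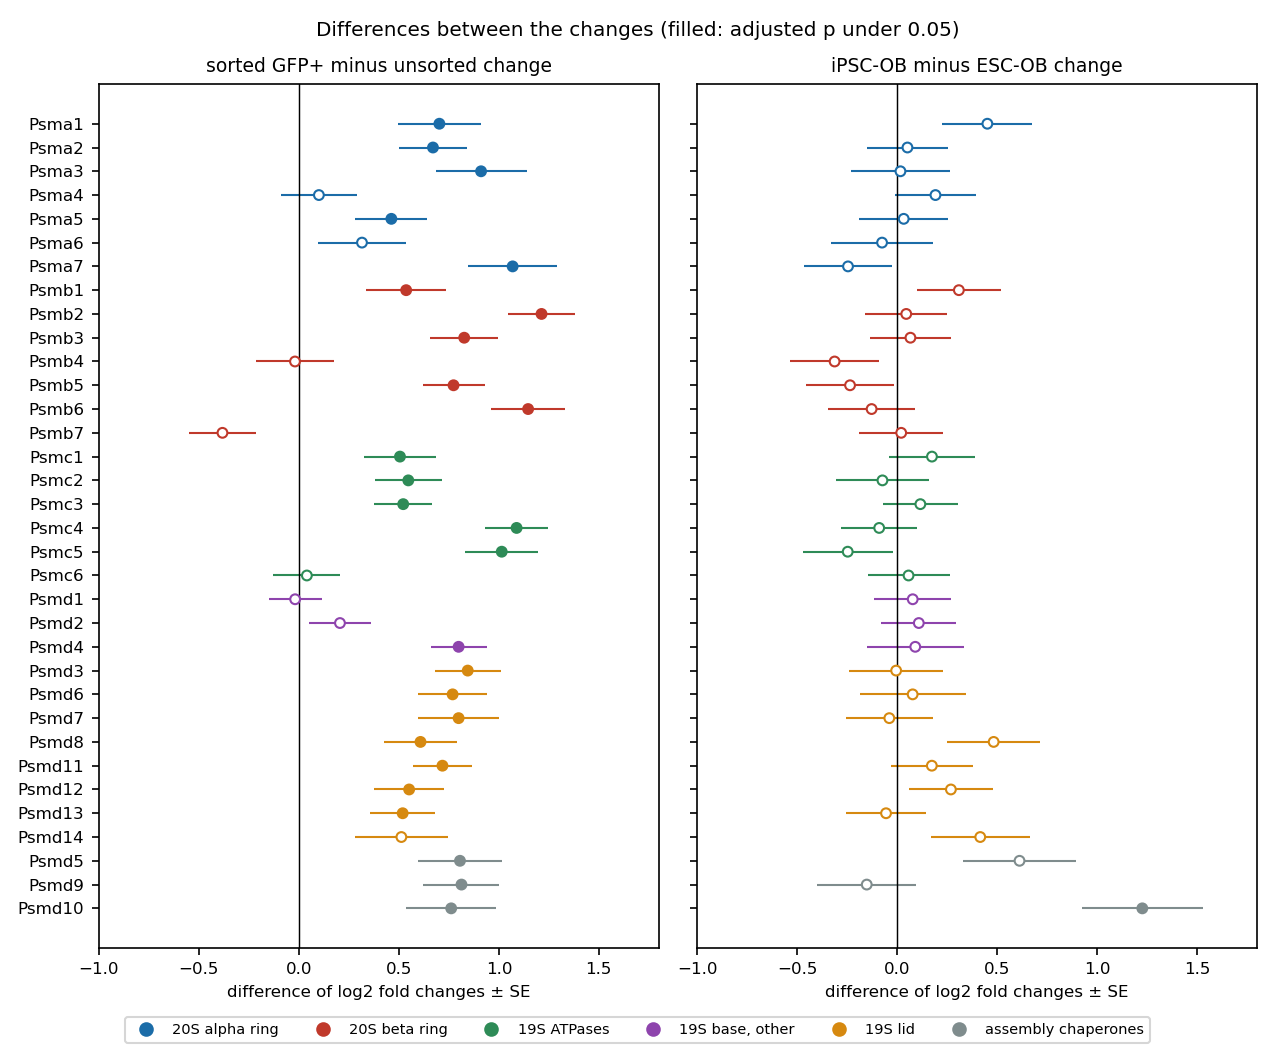
Differences between log2 fold changes with their standard errors for 34 proteasome genes; filled points have an adjusted p under 0.05 over all shared genes. On the left, most genes were higher in sorted GFP+ than in unsorted cells; on the right, Psmd10 is the filled point among the changes from iPSC and from ESC.

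In iPSC-OB, 32 of the 36 genes were lower than in iPSC and none was higher, at an adjusted p under 0.05 or at an unadjusted one. By the authors' deposited values 49.2% of all genes passed (23.1% lower and 26.1% higher), and 32.0% of those with a base mean of at least 100 were lower. The median log2 change was -1.12 (45.9% of the iPSC level), against 0.15 over all genes. Of the 31 constitutive subunits 29 fell, with a median of -1.15 and a range from -1.57 (Psmc4) to 0.32 (Psmd8). Their summed level was 70957 normalised counts in iPSC and 33880 in iPSC-OB. Markers of other cell types moved in the same cultures: the summed liver and endoderm markers (4 of 4 higher) were at 26.2 in iPSC and 22107 in iPSC-OB, and the summed endothelial markers (3 of 4 higher, 1 lower) at 511 and 1750. Their part in the fall was not tested. Psmb1, at -0.23 ± 0.15 in the authors' deposited table, and Psmd8 were the constitutive subunits that did not pass (adjusted p = 0.208 and 0.155).

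The alpha ring fell in 7 of 7 cases in iPSC-OB (median -1.17), the beta ring in 6 of 7 (-1.13), the ATPases in 6 of 6 (-1.13), the other base genes in 3 of 3 (-1.01) and the lid in 7 of 8 (-1.19). Among active-site genes the authors' deposited table lists Psmb5 at -1.54 ± 0.19, Psmb6 at -1.31 ± 0.17 and Psmb7 at -1.13 ± 0.17 (adjusted p = 2.3e-15, 4.39e-13 and 4.11e-10). Among the constitutive subunits, the deepest falls were those of Psmc4 (-1.57 ± 0.15), Psmb5 and Psmc5 (-1.53 ± 0.18) in the authors' deposited table, with adjusted p = 2.93e-23 for Psmc4 and 8.23e-16 for Psmc5.

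The change from iPSC passed as different from that from ESC for none of the 31 constitutive subunits, while 28.2% of all shared genes differed (17.2% lower and 11.0% higher). The differences ran from -0.31 to 0.48 with standard errors of 0.187 to 0.266. The 95% intervals of all 31, per gene and unadjusted, lay within 1 log2 unit of 0, from -0.75 at the lowest bound to 0.94 at the highest. That unit is close to the size of the falls themselves (median -1.15 from each source), so the intervals do not show equal change. At an unadjusted p under 0.05, 2 of the 31 were higher, a cut at which the share of all genes was not counted. With each table set to its median gene, Psma1 and Psmd8 passed as less lowered or higher from iPSC. Across the 31 genes the changes had a Pearson correlation of 0.858 (Spearman 0.801), or 0.778 without Psmd8 and 0.706 without Psmd8 and Psmb1, against 0.696 across 18632 shared genes. This describes genes and not replicates. The stem cell references themselves differed in some markers. Summed smooth muscle markers were 26.9 normalised counts in ESC and 4410 in iPSC, and osteoblast markers 6599 and 12556. Dividing markers were closer, at 41847 and 39783. These levels come from separate normalisations and carry no test across them. The part of the references in the comparison between the sources was not tested.

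Among the other members, Psmd10 and Psma8 differed between the stem cell sources. Psmd10 was estimated at 408 normalised counts in ESC, 146 in ESC-OB, 248 in sorted GFP+, 172 in iPSC and 144 in iPSC-OB. Within the ESC fit the ESC were thus the high group, while iPSC and iPSC-OB lay closer together in theirs. Its change from iPSC was -0.25 ± 0.25 in the authors' deposited table, with adjusted p = 0.419, and the difference from the ESC change was 1.23 ± 0.30 (adjusted p = 4.08e-04). Psmd10 overlaps Atg4a in RefSeq, and the sources used here do not say whether the counting used strand. The change of Psma8 passed as different on fitted folds (adjusted p = 0.00879). With its ESC-OB level set at the floor the difference was 3.39, and it is larger if that level was lower. This takes the iPSC-OB level as fitted, at 2.88 normalised counts, not far above its floor of 1.32. At that floor the fall from iPSC would be 56.9-fold and the difference smaller, so 3.39 is not a lower bound.

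**Figure D4:**
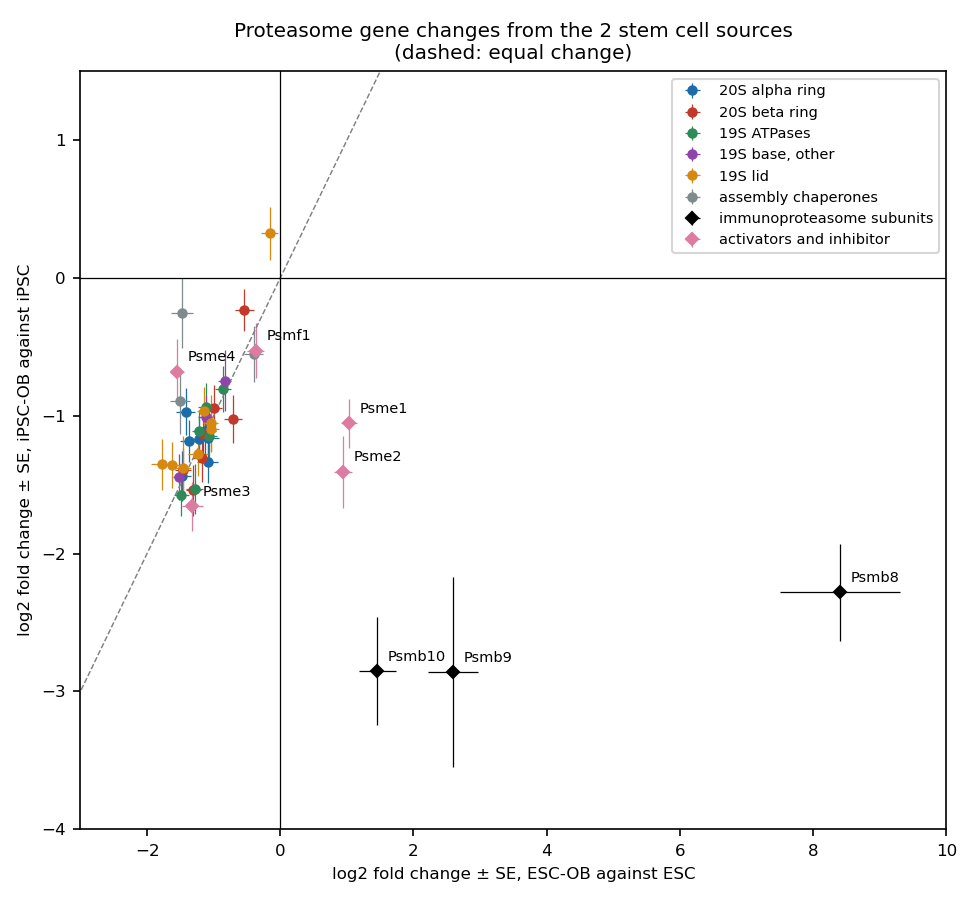
Log2 fold changes with standard errors from the authors' deposited tables, ESC-OB against ESC (x axis) and iPSC-OB against iPSC (y axis), for 34 proteasome genes by role, the immunoproteasome subunits and the activators and inhibitor (diamonds); the dashed line marks equal change. Most of the proteasome genes lie near the line, with Psmd10 and Psmd5 above it by 1.23 and 0.61. Psmb8, Psmb9, Psmb10, Psme1 and Psme2 rose from ESC and fell from iPSC. The Psmb8 point is a fitted value, with its ESC level under the floor of 3 reads.

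Relative to their own stem cells, the inducible genes of the same complex went opposite ways from the 2 sources. Psmb8, Psmb9 and Psmb10, which replace the active-site subunits of Psmb5, Psmb6 and Psmb7, rose in ESC-OB and in sorted GFP+. Psmb8 was estimated at 0.911 normalised counts in ESC, under the floor of 1.22 that 3 reads over the group give, at 309 in ESC-OB and at 722 in sorted GFP+. Against that floor it was at least 253-fold higher in ESC-OB and at least 592-fold higher in sorted GFP+. Psmb9 and Psmb10 rose by 2.60 ± 0.37 and 1.46 ± 0.28 in ESC-OB and by 3.91 ± 0.36 and 2.67 ± 0.27 in sorted GFP+, by the authors' deposited tables. In iPSC-OB the 3 genes stood at -2.28 ± 0.35, -2.86 ± 0.69 and -2.85 ± 0.39 in the authors' deposited table, with adjusted p = 8.57e-10, 1.25e-04 and 6.05e-12. The difference between the sources passed for each, at -5.46 ± 0.78 for Psmb9 and -4.31 ± 0.49 for Psmb10. For Psmb8 it was -10.27 with the ESC level set at its floor, and larger in size if that level was lower. In the iPSC fit the base means of Psmb8, Psmb9 and Psmb10 were 134, 28.7 and 230, with iPSC the higher group. In the ESC fit they were 344, 98.9 and 135, with ESC the lowest group. Psmb8 thus started under the floor in ESC and well above it in iPSC. The part of these starting levels in the opposite signs was not tested.

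Psme1 and Psme2, which encode the interferon-induced activator cap, rose in ESC-OB and sorted GFP+ and fell in iPSC-OB. Psme1 was at 1.04 ± 0.12, 1.59 ± 0.12 and -1.05 ± 0.18 and Psme2 at 0.94 ± 0.14, 1.82 ± 0.13 and -1.41 ± 0.26 in the authors' deposited tables. Psme3, the nuclear activator, fell in all 3, as did Psme4, which sorted GFP+ cells had at -3.42 ± 0.11 in the authors' deposited table, with adjusted p = 1.58e-204. Psmf1, an inhibitor of the core particle, fell in ESC-OB and iPSC-OB. Of 6 interferon response markers 6, 6 and 4 rose in ESC-OB, sorted GFP+ and iPSC-OB. Irf1, an interferon-induced transcription factor, fell in iPSC-OB by 2.28 ± 0.24 in the authors' deposited table, at adjusted p = 2.27e-20. For all 6, the change from iPSC was below that from ESC. Their part in the changes of the inducible subunits was not tested.

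Factors that build the core particle fell as well in the cultures. All 5 measured (Psmg1 to Psmg4 and Pomp) fell in ESC-OB and in iPSC-OB, against 2 of 5 (Psmg1 and Psmg3) in sorted GFP+. Psmg1 was at -2.20 ± 0.18, -1.38 ± 0.17 and -2.04 ± 0.20 and Pomp, which matures the active sites, at -1.30 ± 0.15, -0.23 ± 0.15 and -1.16 ± 0.20 in the authors' deposited tables. Of 6 bound subunits and enzymes, 5 fell in ESC-OB, 3 in sorted GFP+ and 4 in iPSC-OB. In the same order 31.0%, 32.4% and 23.1% of all genes were lower. With a base mean of at least 100 the shares were 39.5%, 40.7% and 32.0%. The sorted GFP+ counts of both lists lay near the last of these shares for that group. The deubiquitinases Uchl5 and Usp14 fell in all 3. The ubiquitin receptor Adrm1 was at -1.14 ± 0.11 in ESC-OB, 0.22 ± 0.10 in sorted GFP+ and -0.97 ± 0.18 in iPSC-OB in the authors' deposited tables, with adjusted p = 8.44e-26, 0.0423 and 4.41e-07. Shfm1, a small lid subunit, was at 0.08 ± 0.16, 0.96 ± 0.16 and 0.12 ± 0.23 there and passed only in sorted GFP+.

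Of 7 genes for transcription of the proteasome, 3 fell and 2 rose in ESC-OB, 5 fell and 1 rose in sorted GFP+, and 2 fell in iPSC-OB. Passing genes were thus 5, 6 and 2 of 7, against 69.6%, 71.5% and 49.2% of all genes. Nfe2l1 was at 0.68 ± 0.10, 0.02 ± 0.10 and 0.40 ± 0.24 in the authors' deposited tables, with adjusted p = 1.63e-10, 0.888 and 0.151. Its sorted minus unsorted difference was -0.66 ± 0.15 (adjusted p = 6.94e-05). The part of this factor, whose protein is controlled by processing, was not tested. Ngly1, the deglycosylase that the Nfe2l1 protein needs, rose in ESC-OB (1.07 ± 0.20) and sorted GFP+ (1.62 ± 0.19) in the authors' deposited tables. The NF-Y genes Nfyb and Nfyc fell in all 3, and Nfya fell in sorted GFP+ alone of the 3, by 3.15 ± 0.15 in the authors' deposited table, with adjusted p = 2.24e-100.

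Of 5 genes for ubiquitin and its activation, 5 fell in ESC-OB, 4 in sorted GFP+ and 4 in iPSC-OB, and 1 rose in sorted GFP+. That gene was Ubb, a polyubiquitin gene, at -0.59 ± 0.10 in ESC-OB and 0.99 ± 0.10 in sorted GFP+ by the authors' deposited tables (adjusted p = 3.34e-09 and 2.84e-24). The ubiquitin-activating enzyme Uba1 fell in all 3, at -1.84 ± 0.10, -2.48 ± 0.10 and -1.04 ± 0.15 in the authors' deposited tables. Of 7 shuttle and unfolding genes 5, 4 and 4 fell in ESC-OB, sorted GFP+ and iPSC-OB. Vcp, the segregase that extracts ubiquitinated proteins, was at -0.75 ± 0.10, -0.57 ± 0.10 and -0.92 ± 0.20 in the authors' deposited tables. The shuttle receptor Rad23b was at -3.21 ± 0.15 in sorted GFP+ by the authors' deposited table (adjusted p = 1.16e-95). Over all these lists, 26 of 38 measured genes fell in ESC-OB, 20 in sorted GFP+ and 27 in iPSC-OB, while 7, 9 and 1 rose. Over all genes 31.0%, 32.4% and 23.1% were lower and 38.6%, 39.1% and 26.1% higher in the same order.

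**Figure D5:**
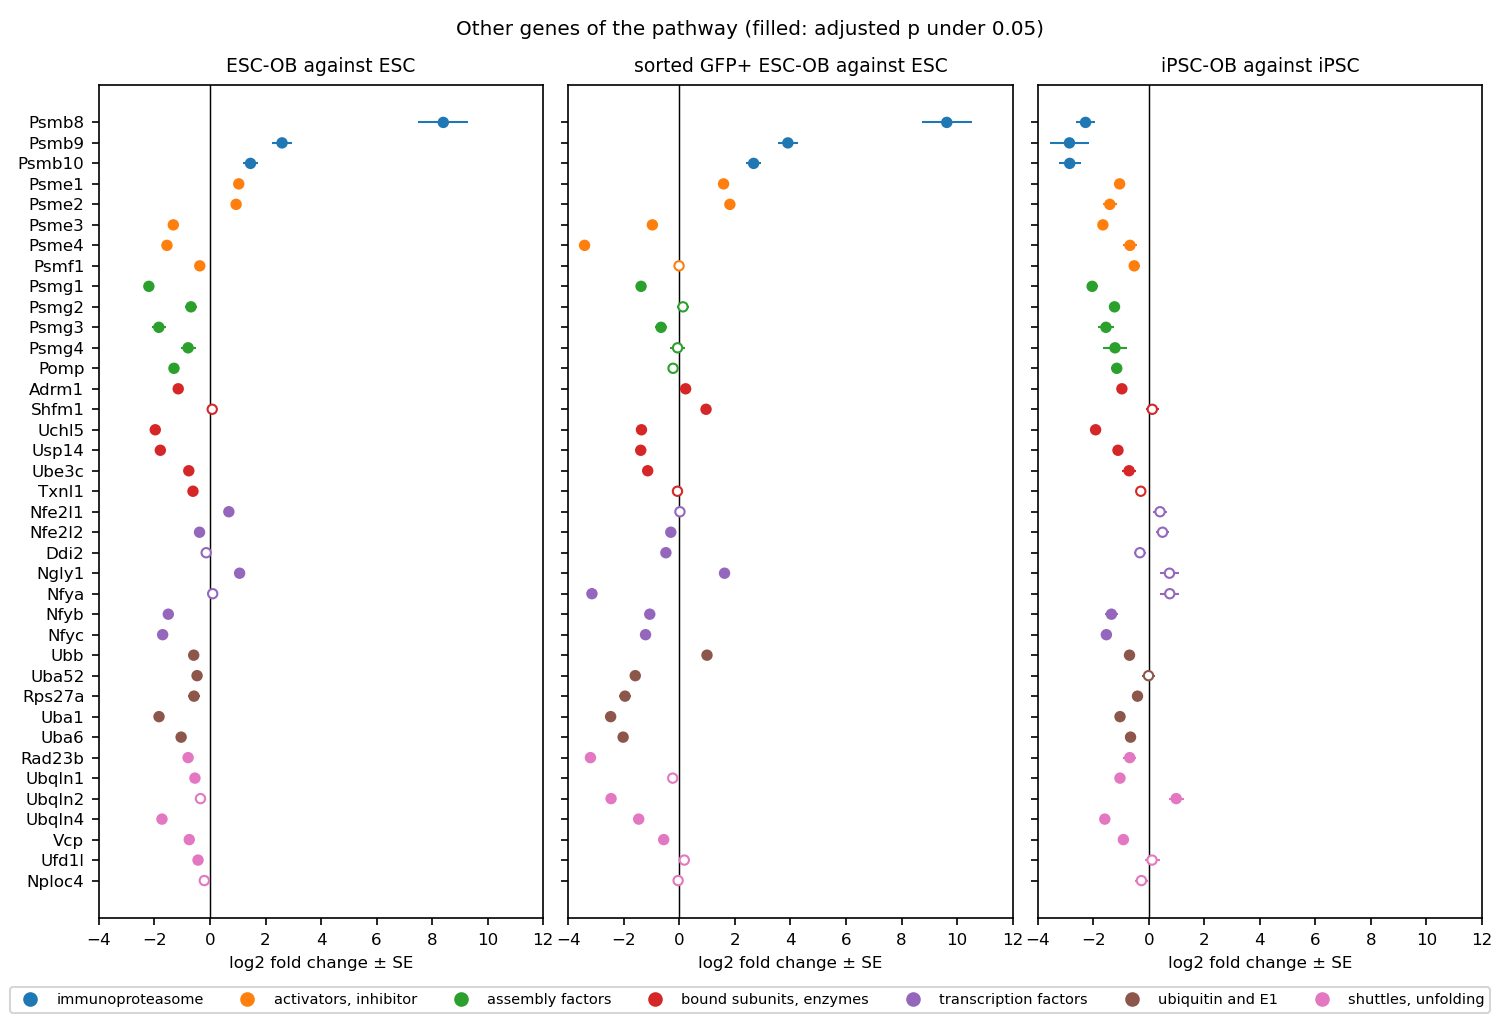
Log2 fold changes with standard errors from the authors' deposited tables for 38 other genes of the ubiquitin-proteasome pathway (rows, coloured by list) in 3 comparisons; filled points have an adjusted p under 0.05. The immunoproteasome genes lie right of 0 in both ESC comparisons, where Psmb8 is a fitted value with its ESC level under the floor of 3 reads, and left of it in iPSC-OB.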

How the data were processed

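Messenger RNA was sequenced in 22 samples of 8 groups, 5 of which enter the comparisons here. Per the submitters' processing notes the tools were STAR 2.4.2a, DESeq2 and R 3.2.2 with the mouse build mm9; their settings and filters are not given in the sources used here. The 3 deposited tables hold the authors' comparisons, with 0 columns of values per sample. Their columns, per the file headers, are the base mean, a signal that averages size-factor scaled counts over the fit's libraries. The authors' log2 fold change is the log2 of the differentiated over the stem cell level as they fitted it, and comes with its error in log2. The authors' deposited score is the test statistic, that change over its error, and their p-value is given raw and adjusted. The direction was read from Pou5f1, Nanog and Esrrb, which are strongly negative, so positive means higher in differentiated cells. The pair of ESC tables has identical base means and so came from 1 fit with the same ESC libraries, and the iPSC table from another. Standard errors level off at 1.89 (ESC) and 1.29 (iPSC), as with shrunken folds, which understate changes of genes with low counts.

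Python 3.11.15, pandas 2.3.3 and SciPy 1.17.1 were used here. Computed were counts and medians of the members beside all genes, differences between 2 deposited changes, and motif matches. Differences were tested as z over the combined standard error, with Benjamini-Hochberg adjustment over all shared genes (19781 and 18632). The code was run on simulated data with independent errors drawn from the deposited standard errors. Such data leave out the shared ESC libraries and the shrinkage of folds. They check the code and not the calibration of the test on these data. Library sizes were read from base means under 1, each made up of a few reads: 9 libraries in the ESC fit (2040 of 2040 values, tolerance 3e-07) and 5 in the iPSC fit (1456 of 1456). The latter had 3 on the iPSC side, against 2 in the labels. Group levels follow from base means, folds and these numbers. A floor is 3 reads over a group, and covers counting error only. Lengths are those of GENCODE M21 principal transcripts.

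All 36 genes are named in every comparison, and pathway and marker genes come from lists by known role; Paaf1 has no row, and 2 listed genes are not reported here. The members and lists were chosen with earlier results of these data known.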

Additional observations from a re-analysis of the deposited data

Results flagged for a closer look

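The sorted and unsorted changes differed for 26 genes, always with the sorted cells higher. The test was of the difference itself (z over the combined standard error, Benjamini-Hochberg adjusted over 19781 genes). Over all genes 22.7% passed, 10.7% higher and 12.1% lower. The sorted libraries were the deepest, and the part of depth and of cell types was not tested. In the alpha ring the log2 differences were 0.70 (Psma1), 0.67 (Psma2), 0.91 (Psma3), 0.46 (Psma5) and 1.07 (Psma7). In the beta ring they were 0.54 (Psmb1), 1.21 (Psmb2), 0.83 (Psmb3), 0.77 (Psmb5) and 1.15 (Psmb6). Among the ATPases they were 0.51 (Psmc1), 0.55 (Psmc2), 0.52 (Psmc3), 1.09 (Psmc4) and 1.01 (Psmc5). The ubiquitin receptor Psmd4 differed by 0.80. Lid genes differed by 0.84 (Psmd3), 0.77 (Psmd6), 0.80 (Psmd7), 0.61 (Psmd8), 0.72 (Psmd11), 0.55 (Psmd12) and 0.52 (Psmd13). The assembly chaperones differed by 0.81 (Psmd5), 0.81 (Psmd9) and 0.76 (Psmd10). The change from iPSC lay above that from ESC for Psma8 and Psmd10 (1.23), by the same test over 18632 genes. For Psma8 the difference was 3.65 as fitted, or 3.39 with ESC-OB at the floor of 3 reads and iPSC-OB as fitted. Over all shared genes 28.2% differed, 11.0% higher and 17.2% lower.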

How the results depend on the processing

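The counts of lower genes in ESC-OB and iPSC-OB stayed within 1.5 times of the reported ones under each alternative run. Centring on the median gene of base mean at least 10 moved the member median to -1.36 in ESC-OB and -0.79 in sorted GFP+. It removed both rises in sorted GFP+ (0 higher). It also raised the genes that differed between iPSC-OB and ESC-OB from 2 to 5, all higher (Psma1, Psmd5 and Psmd8 added). A centre on genes with a base mean of at least 100, whose median was 0.05 in sorted GFP+, was not run. Asking for a change past 1 log2 unit left 7 genes in sorted GFP+, 7 lower and 0 higher. Without Psma8, Psmb11, Psmd5, Psmd9 and Psmd10, 1 gene was higher in sorted GFP+, and 0 differed between iPSC-OB and ESC-OB, where 0 were higher. With a base mean of at least 100, 1 gene differed there, 1 higher. With the shared ESC variance taken out, on the unchecked assumption of an even split, 1 gene (Psmb7) was lower in sorted than unsorted cells and 27 were higher. Psma5 was lost when re-centred. The level of iPSC with 2 and 2 libraries, an alternative chosen after seeing the data, changed the summed level by less than 1.5 times. No paired analysis was possible because the tables hold no value per sample, so leaving out replicates was not run either. Depth limits Psma8 in ESC-OB and sorted GFP+, Psmb11 in ESC and iPSC-OB, and Psmb8 in ESC, whose levels lay under the floor of 3 reads; with members raised to it, the member medians were -1.17 in ESC-OB, -0.62 in sorted GFP+ and -1.12 in iPSC-OB.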
